A study of Mus musculus with 29 samples.

Results

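The genes described here are 46 genes of mitosis and of the egg's cell cycle, chosen by symbol for what their proteins do: cyclins, Cdk1 and its regulators, mitotic kinases, the spindle checkpoint, the anaphase-promoting complex, cohesin, condensin, the kinetochore and the spindle. All 46 were present among the 24448 gene rows of the count table. Entry into M phase is driven by Cdk1 bound to a B-type cyclin. Wee kinases and Myt1 hold that complex inactive, and Cdc25 phosphatases switch it on. The spindle checkpoint restrains Cdc20 until every chromosome is attached; the anaphase-promoting complex then has securin and cyclin B destroyed, which frees separase to cut cohesin. The mouse egg waits in metaphase of the second meiotic division with a large store of these messenger RNAs, holds the arrest through Mos and Fbxo43, and uses some forms that most somatic cells lack, among them Wee2, Aurkc and Fbxo43.

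RNA was measured in 8 hydroxyurea-treated (HU) embryos, 9 control embryos and 12 single cumulus cells of the mouse strain BDF1. Every embryo was made by nuclear transfer (NT): an enucleated oocyte received the nucleus of a cumulus cell, which is a somatic cell of the follicle. All embryos of both groups were activated for 6 h with 10 mM strontium in medium with CB and EGTA. HU embryos were then kept in 10 uM hydroxyurea, an inhibitor of ribonucleotide reductase, which was withdrawn after 24 h, and control embryos were kept without it. Embryos of both groups were collected 28 h after activation at the 2-cell stage. The comparison asks whether HU after activation alters the transcripts of NT embryos, and the cumulus cells stand for the donor cell. Each embryo library holds the RNA of the whole embryo, so a difference between its 2 blastomeres, or in RNA per cell, cannot be told apart from a difference of the embryo. Whether the embryos stem from different females or days is not stated, so p-values measure only how these embryos differ from each other.

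Libraries held 2442541 to 3757492 gene counts in HU embryos, 1801261 to 3472116 in control embryos and 317195 to 4051494 in cumulus cells. Of these counts, the 45S ribosomal precursor Rn45s took 15.2 to 28.98% in HU embryos, 16.18 to 32.49% in control embryos and 49.34 to 86.58% in cumulus cells. All 15 egg markers had counts in both embryo groups, while 10 of the 15, among them Zp3 and Gdf9, were at 0 in every cumulus cell. All 15 cumulus and granulosa markers had counts in the cumulus cells, where their summed level was 361 to 4834 CPM (counts per 1e6 counts), against 41.0 to 154 CPM in HU embryos and 29.8 to 132 CPM in control embryos. Of the 15, 13 had counts in HU embryos and 14 in control embryos. These sums count Rn45s in the total, and only those of embryos are TMM-scaled. The 8 leukocyte markers summed to a median of 0.60 CPM in cumulus cells and to 164 CPM in the highest cell. Without molecular identifiers in the libraries, an interval or floor given here covers counting error alone.

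Levels of different genes were compared per length, in FPKM (counts per kilobase of gene and per 1e6 counts of the library). Wee2, the egg form of the Wee kinases that phosphorylate Cdk1, was the most abundant of the 46 in both groups: 522 ± 144 FPKM in HU embryos (SD, n = 8) and 630 ± 59.2 FPKM in control embryos (SD, n = 9). In all 9 control embryos it stood above Pttg1 (securin, the inhibitor of separase), the next in order in that group at 258 ± 84.7 FPKM. In HU embryos Pttg1 was in place 5 at 239 ± 70.5 FPKM. Cyclin B1 (277 FPKM), Cdc20 (266 ± 301 FPKM) and cyclin A2 (243 FPKM) stood between it and Wee2 in that group. The next places in control embryos went to cyclin B1 (Ccnb1, 240 FPKM), cyclin A2 (Ccna2, 212 FPKM), the centromeric histone Cenpa (194 FPKM), the checkpoint protein Mad2l1 (178 FPKM) and the passenger protein Cdca8, or borealin (170 FPKM). Below these stood Cdc20 (147 FPKM), the activator of the anaphase complex, and survivin (Birc5, 141 FPKM). These neighbours differed by less than the larger of their SDs at each step between Pttg1 and Birc5.

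At the low end, Mos, the kinase of the egg's metaphase arrest, averaged 4.41 ± 3.19 FPKM in HU embryos and 2.34 ± 1.43 FPKM in control embryos. Cyclin A1 (Ccna1), the germline form of cyclin A, had counts in 5 of 17 embryos. Cyclin B3 (Ccnb3), known for its role in the first meiotic anaphase of mouse oocytes, averaged 0.46 FPKM in HU embryos and 0.86 FPKM in control embryos. Among the 46 genes ordered by their control level, neighbours differed by more than the larger SD only at the steps from Wee2 to Pttg1, Birc5 to Plk4, Anapc1 to Smc1a and Smc2 to Mos. Wee2 exceeded the somatic form Wee1 in all 17 embryos, with 38.2 times its mean FPKM in HU embryos and 40.3 times in control embryos. Cyclin B1 exceeded cyclin B2 in all 17 embryos. In contrast, Fbxo43, the inhibitor of the anaphase complex that holds the egg's arrest, was below its relative Fbxo5, which acts in mitosis, in all 17. Aurkc, the germline Aurora kinase, was above Aurkb, the form of somatic mitosis, in 6 of 17.

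The 46 genes differed widely in how far they varied between embryos, and their promoters are shown here for the 2 most and the 2 least variable genes with a mean of at least 100 CPM and a matched promoter. Cdc20 and Aurka (Aurora A, the kinase of spindle poles) varied most by that rule, and Birc5 and Mad2l1 varied least. Each sequence is the RefSeq promoter on GRCm38.p6, 5′ to 3′ on the gene's strand. It holds 250 bases before and 50 bases after the RefSeq start of transcription. Capitals mark CCAAT and TTTGAA on either strand, the core letters of the CCAAT box and of the cell cycle homology region (CHR), which recur in promoters of genes expressed in the second gap phase and mitosis. They are Cdc20 at chr4:118437294-118437593 on the minus strand, Aurka at chr2:172370521-172370820 on the minus strand, Birc5 at chr11:117848987-117849286 on the plus strand and Mad2l1 at chr6:66534971-66535270 on the plus strand.
Cdc20: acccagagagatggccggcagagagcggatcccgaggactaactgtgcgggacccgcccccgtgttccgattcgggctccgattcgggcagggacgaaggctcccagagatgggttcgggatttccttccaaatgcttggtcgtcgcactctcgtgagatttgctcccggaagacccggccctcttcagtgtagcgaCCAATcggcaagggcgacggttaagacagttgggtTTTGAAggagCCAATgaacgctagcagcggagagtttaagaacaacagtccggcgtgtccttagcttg
Aurka: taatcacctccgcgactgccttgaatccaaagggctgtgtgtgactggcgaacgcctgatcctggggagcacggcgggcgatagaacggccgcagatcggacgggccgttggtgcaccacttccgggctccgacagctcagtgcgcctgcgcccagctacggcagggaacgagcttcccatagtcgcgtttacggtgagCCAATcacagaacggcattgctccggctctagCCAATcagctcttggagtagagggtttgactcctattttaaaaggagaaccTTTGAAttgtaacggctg
Birc5: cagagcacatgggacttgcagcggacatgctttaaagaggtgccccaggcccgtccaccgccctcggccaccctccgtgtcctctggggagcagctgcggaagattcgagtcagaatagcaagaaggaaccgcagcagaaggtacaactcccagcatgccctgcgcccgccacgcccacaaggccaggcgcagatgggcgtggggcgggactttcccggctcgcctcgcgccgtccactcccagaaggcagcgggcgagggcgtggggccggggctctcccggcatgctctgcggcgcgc
Mad2l1: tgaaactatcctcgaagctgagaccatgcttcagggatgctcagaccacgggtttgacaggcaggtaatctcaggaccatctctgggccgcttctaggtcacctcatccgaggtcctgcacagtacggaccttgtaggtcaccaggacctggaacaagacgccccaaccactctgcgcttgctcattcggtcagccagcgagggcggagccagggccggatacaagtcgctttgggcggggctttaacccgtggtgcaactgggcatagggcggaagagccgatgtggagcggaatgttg

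The Cdc20 promoter held CCAAT at -53 and -8 and TTTGAA at -18 from the start site, all on the gene's strand. The Aurka promoter held CCAAT at -51 and -19 and TTTGAA at 33 bases past the start site. The windows of Birc5 and Mad2l1 held neither motif. The RefSeq starts of Aurka, Birc5 and Mad2l1 lie upstream of the GENCODE gene's start, and the Mad2l1 window ends before it. Other start sites may therefore be in use. RefSeq promoters were matched for 35 of the 46 genes. Of these, 26 (74.3%) held CCAAT, against 37.9% of all 27025 promoters in the table; 16 (45.7%) held TTTGAA, against 18.1%; and 15 (42.9%) held both, against 7.12%. The 15 with both were Aurka, Bub1b, Bub3, Ccnb2, Cdc20, Cdca8, Cdk1, Cenpa, Espl1, Fbxo5, Kif11, Plk1, Smc2, Top2a and Ttk. The SD of log2(CPM + 1) over the 17 embryos had a median of 0.71 for these 15 genes (range 0.45 to 1.52). It had a median of 0.52 for the 18 other genes with a promoter that passed the low-count filter (range 0.24 to 0.75). The split by promoter was made after the values were seen and was not tested, and a match of letters is not a bound site.

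Cdc20 stood at 107, 88.1, 241, 1523, 1058, 60.1, 777 and 81.7 CPM in HU embryos 1 to 8, and at 74.4, 204, 1020, 52.3, 214, 188, 119, 320 and 156 CPM in control embryos 1 to 9. The levels split the embryos: HU 4, HU 5, HU 7 and control 3 lay at 777 CPM or above, and the other 13 lay at 320 CPM or below. The highest embryo held 29.1 times the level of the lowest. Aurka varied 25.7-fold over the 17 embryos, Aurkb 10.7-fold, Bub3 (a checkpoint protein) 10.3-fold and Cdk1 8.07-fold. At lower levels, Mos varied 30.5-fold (mean 4.79 CPM) and Smc1a 11.6-fold (mean 26.7 CPM). At the other end, Birc5 varied 1.76-fold, Mad2l1 1.89-fold, the anaphase complex subunit Cdc27 1.98-fold, the centriole duplication kinase Plk4 1.99-fold and Wee2 2.14-fold. Among the 44 genes that passed the low-count filter, HU 4 was the highest of 17 embryos for 16 genes and HU 5 for 9, while HU 1, 2, 6 and 8 and control 6 and 8 were highest for 0. HU 4 also had the fewest genes with counts of the 17 embryos (12887) and the lowest share of Rn45s (15.2%). The places were not counted over all genes tested, so they cannot be called particular to these genes.

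The embryos high in Cdc20 were also those high in 2-cell transcripts, the genes switched on at genome activation. The summed level of 16 such markers, among them Zscan4d and Zfp352, was 313, 550, 1379, 2807, 1660, 223, 3300 and 243 CPM in HU embryos 1 to 8. In control embryos 1 to 9 it was 303, 331, 3191, 317, 701, 409, 336, 320 and 551 CPM. HU 7, control 3, HU 4 and HU 5 thus held the first 4 places of 17, and the same 4 embryos held the first 4 places in Cdc20, in Ccnb1 and in Aurka. For Cdk1 they held places 1, 2, 3 and 5, with HU 3, which was in place 5 for 2-cell transcripts, in place 4. HU 3 was in place 6 for Cdc20, 12 for Ccnb1 and 14 for Aurka. Wee2 and Cdc25b, the Cdc25 form that restarts meiosis in the mouse oocyte, stood low in part of these embryos: HU 5, HU 4 and HU 7 held places 17, 15 and 14 of 17 in Wee2, and HU 7, HU 4, HU 5 and HU 3 places 17, 16, 15 and 14 in Cdc25b. Control 3, in place 2 for 2-cell transcripts, was in place 12 for Wee2 and 9 for Cdc25b, and HU 2, in place 8 for 2-cell transcripts, was in place 16 for Wee2. The cumulus marker sum was highest in HU 4 (154 CPM), HU 7 (145 CPM) and control 3 (132 CPM), the same embryos again in part. HU 4, control 3 and HU 7 also had the fewest genes with counts of the 17 embryos, at 12887, 13875 and 13892, against 14293 in HU 5. Control 3 had the smallest library as well, at 1801261 gene counts. The part of these library traits in the places given here was not tested. By the widest gap in 2-cell transcripts the embryos fall into 12 at 223 to 701 CPM (4 HU and 8 control) and 5 at 1379 to 3300 CPM (4 HU and 1 control), so no correlation with that sum over all 17 is given, and the part of either marker group in the levels of these genes was not tested.

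**Figure D1:**
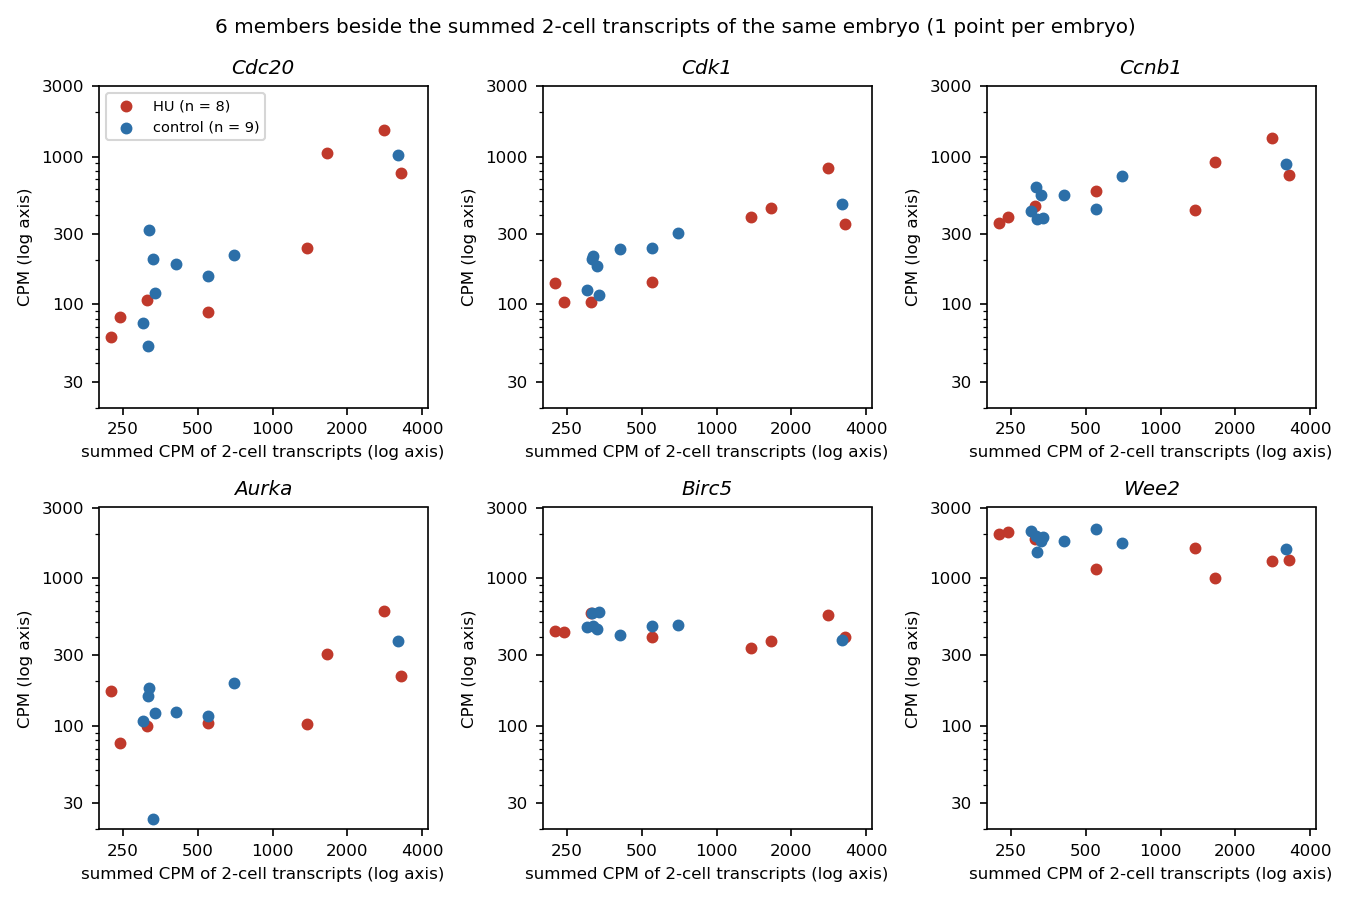
Level of 6 genes (CPM, log axis) against the summed CPM of 16 2-cell transcripts (log axis), 1 point per embryo, with 8 HU embryos in red and 9 control embryos in blue. HU 4, HU 5, HU 7 and control 3 stand at the upper right for Cdc20, Ccnb1 and Aurka, whereas Birc5 stays between 334 and 586 CPM in every embryo.

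**Figure D2:**
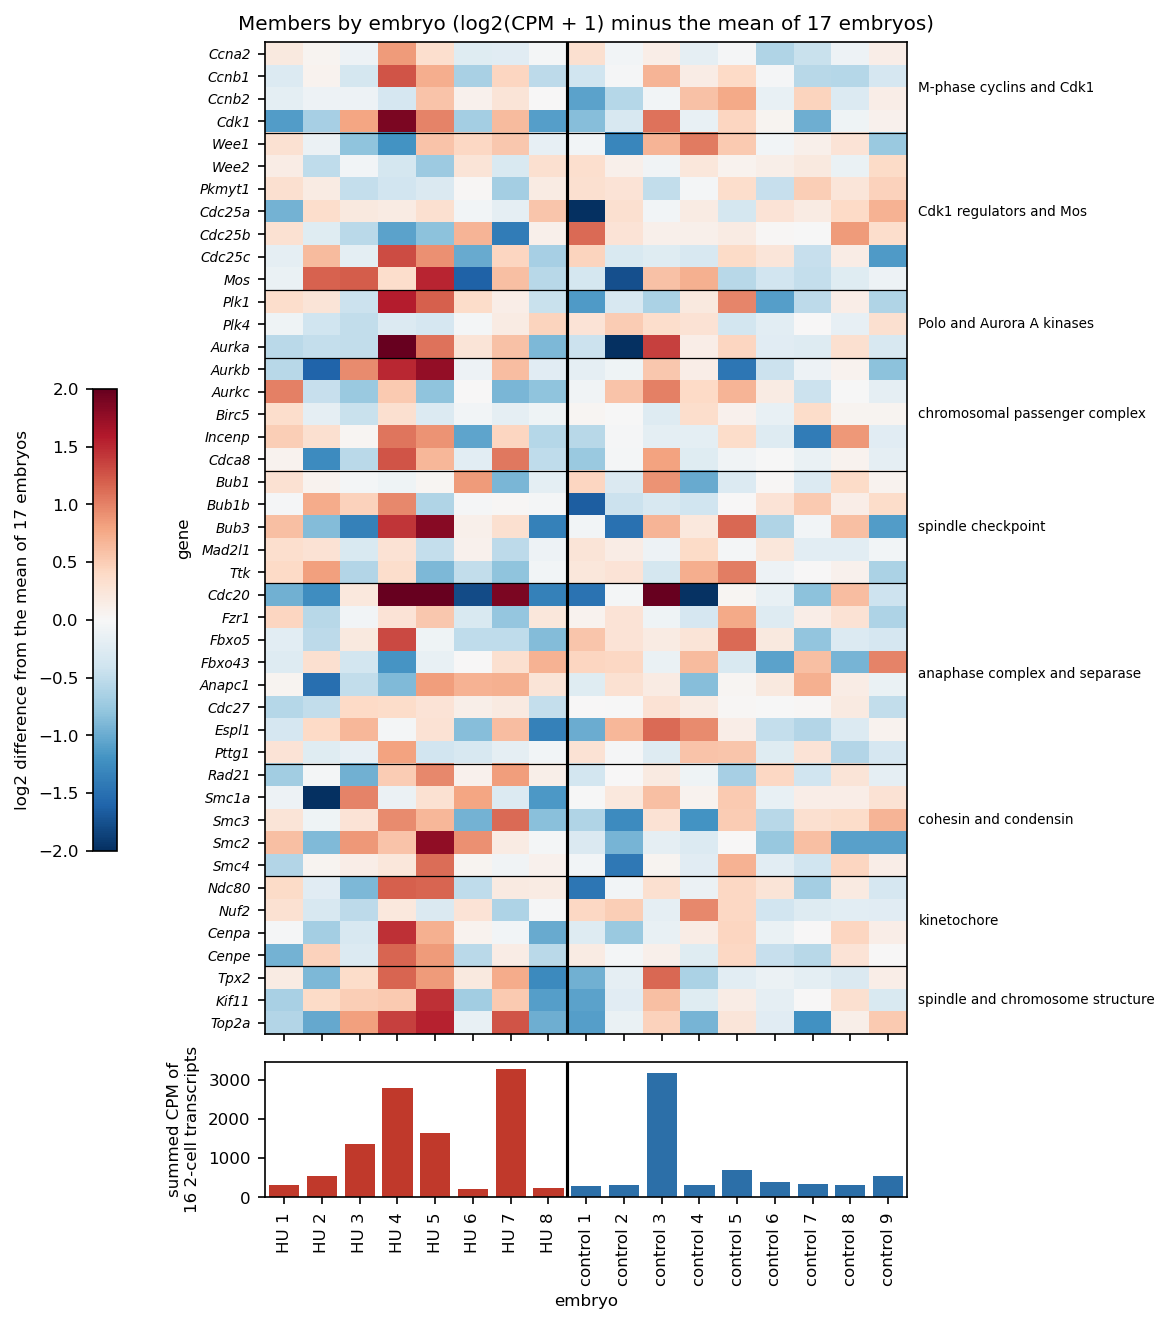
Level of the 44 genes that passed the low-count filter in each embryo, as log2(CPM + 1) minus the gene's mean over 17 embryos (colours end at 2 in either direction), with genes grouped by function, HU embryos on the left and control embryos on the right. Bars give the summed CPM of 16 2-cell transcripts, and HU 4 is the highest embryo for 16 genes and HU 5 for 9 of the 44, a count not made over all genes.

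In HU against control embryos, no member of the group passed the test. Of the 46 genes, 44 passed the low-count filter, since Ccna1 and Ccnb3 had too few counts, and 0 of the 44 had an adjusted p under 0.05 in the edgeR quasi-likelihood test, nor did any of the 11476 genes tested (0% called). Before adjustment, p lay under 0.05 for 671 genes of 11476 (5.85%), 437 of them higher (3.81%) and 234 lower (2.04%) in HU embryos. Of the 44 members, 4 (9.09%) were under that threshold, 3 higher and 1 lower. DESeq2 called 3 genes in the whole table and limma-voom 0, and no member was among them. The fitted log2 fold change was above 0 for 25 of 44 members (56.8%), against 53.6% of all genes tested. Its median was 0.20 over the members and 0.04 over all genes tested. Leaving out 1 embryo moved the fold change of 35 of the 44 members by over 1.5 times, or past 0, in at least 1 fit, and leaving out HU 4 did so for 26. For members near 0, such as Bub1 (-0.0033) and Cdc25a (0.013), a small shift is enough. This was not counted over all genes, so it cannot be called particular to the members. The median over the members was 0.017 without HU 4, 0.025 without HU 5 and 0.096 without control 2.

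**Figure D3:**
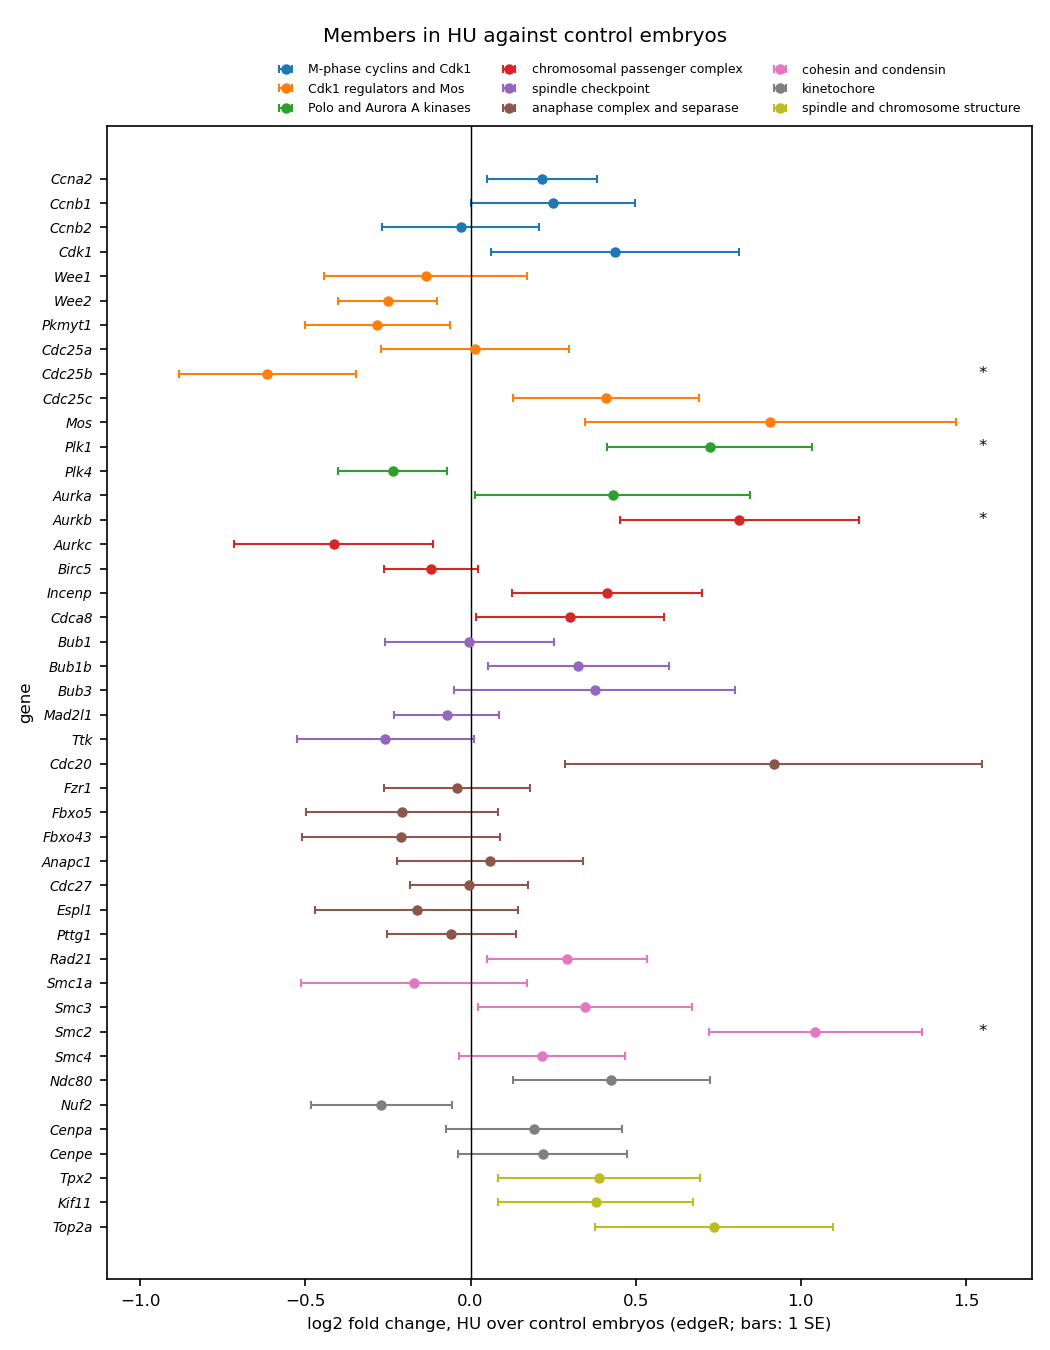
Fitted log2 fold change of HU over control embryos for the 44 genes that passed the low-count filter, by function, with bars of 1 SE (edgeR, 8 HU and 9 control embryos). Asterisks mark the 4 genes at an unadjusted p under 0.05, Cdc25b, Plk1, Aurkb and Smc2, of which none passed after adjustment.

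The 5 members with the smallest p were Smc2, Plk1, Cdc25b, Aurkb and Top2a. Smc2, a core subunit of both condensins, which compact chromosomes, ranged over 18.2, 52.0 and 120 CPM in HU embryos (lowest, median and highest), against 15.5, 27.7 and 52.5 CPM in control embryos. The groups overlapped, with 4 of 8 HU embryos above every control. Its log2 fold change was 1.04 ± 0.32 (SE; edgeR p = 0.0037, adjusted p = 0.83), and its unadjusted p stayed under 0.05 whichever embryo was left out. Its partner Smc4 ranged over 56.7, 89.97 and 187 CPM in HU embryos, against 31.0, 82.4 and 139 CPM in control embryos (log2 fold change 0.22 ± 0.25).

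Plk1, the Polo kinase that drives mitotic entry and spindle assembly, ranged over 98.5, 165 and 401 CPM in HU embryos, against 60.3, 93.1 and 264 CPM in control embryos. All 8 HU embryos lay above the control median, while 2 lay above every control. The log2 fold change was 0.72 ± 0.31 (edgeR p = 0.029, adjusted p = 0.83). Aurkb, the kinase of the chromosomal passenger complex, which corrects faulty attachments of chromosomes, ranged over 23.6, 91.7 and 252 CPM in HU embryos, against 26.6, 68.8 and 108 CPM in control embryos. HU embryos reached further both up and down: 4 lay above and 1 below every control. Its log2 fold change was 0.81 ± 0.36 (edgeR p = 0.034, adjusted p = 0.83). Top2a, the topoisomerase that untangles sister chromatids, ranged over 74.2, 203 and 442 CPM in HU embryos, against 65.4, 139 and 219 CPM in control embryos. HU embryos fell into 4 above every control and 4 at or below 138 CPM. The log2 fold change was 0.74 ± 0.36 (edgeR p = 0.053, adjusted p = 0.83).

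Cdc25b was the only member lower in HU at an unadjusted p under 0.05. It ranged over 31.5, 64.8 and 137 CPM in HU embryos, against 84.8, 95.9 and 188 CPM in control embryos. In HU, 5 of 8 embryos lay below every control and HU 6 lay at 137 CPM. Its log2 fold change was -0.62 ± 0.27 (edgeR p = 0.031, adjusted p = 0.83). Cdc25b overlaps Spef1 on the opposite strand, and the libraries do not mark strand. The 4 HU embryos lowest in Cdc25b were those highest in 2-cell transcripts within the group. When each of the 17 embryos was left out in turn, the unadjusted p of Plk1 was under 0.05 in 12 of 17 fits, that of Aurkb in 11 and that of Cdc25b in 11. It was lost for all 3 without HU 4 or HU 5. It was also lost for Plk1 without control 1, 6 or 9, for Aurkb without HU 3 or control 5, 6 or 9, and for Cdc25b without HU 3, HU 7, control 1 or control 8. The fold changes kept their sign in these fits, at 0.49 to 0.95 for Plk1, 0.55 to 0.97 for Aurkb and -0.82 to -0.49 for Cdc25b (log2). Limma-voom and the replicate block also lost Aurkb, at 0.54 and 0.43, ERCC scaling lost Cdc25b, library size alone lost Plk1, and a fit with all 3 groups lost every member, Smc2 included. The other phosphatases gave 0.01 ± 0.28 for Cdc25a and 0.41 ± 0.28 for Cdc25c on the log2 scale. Cdc25c ranged over 69.0, 155 and 344 CPM in HU embryos, against 63.2, 118 and 189 CPM in control embryos, with 3 HU embryos above every control.

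**Figure D4:**
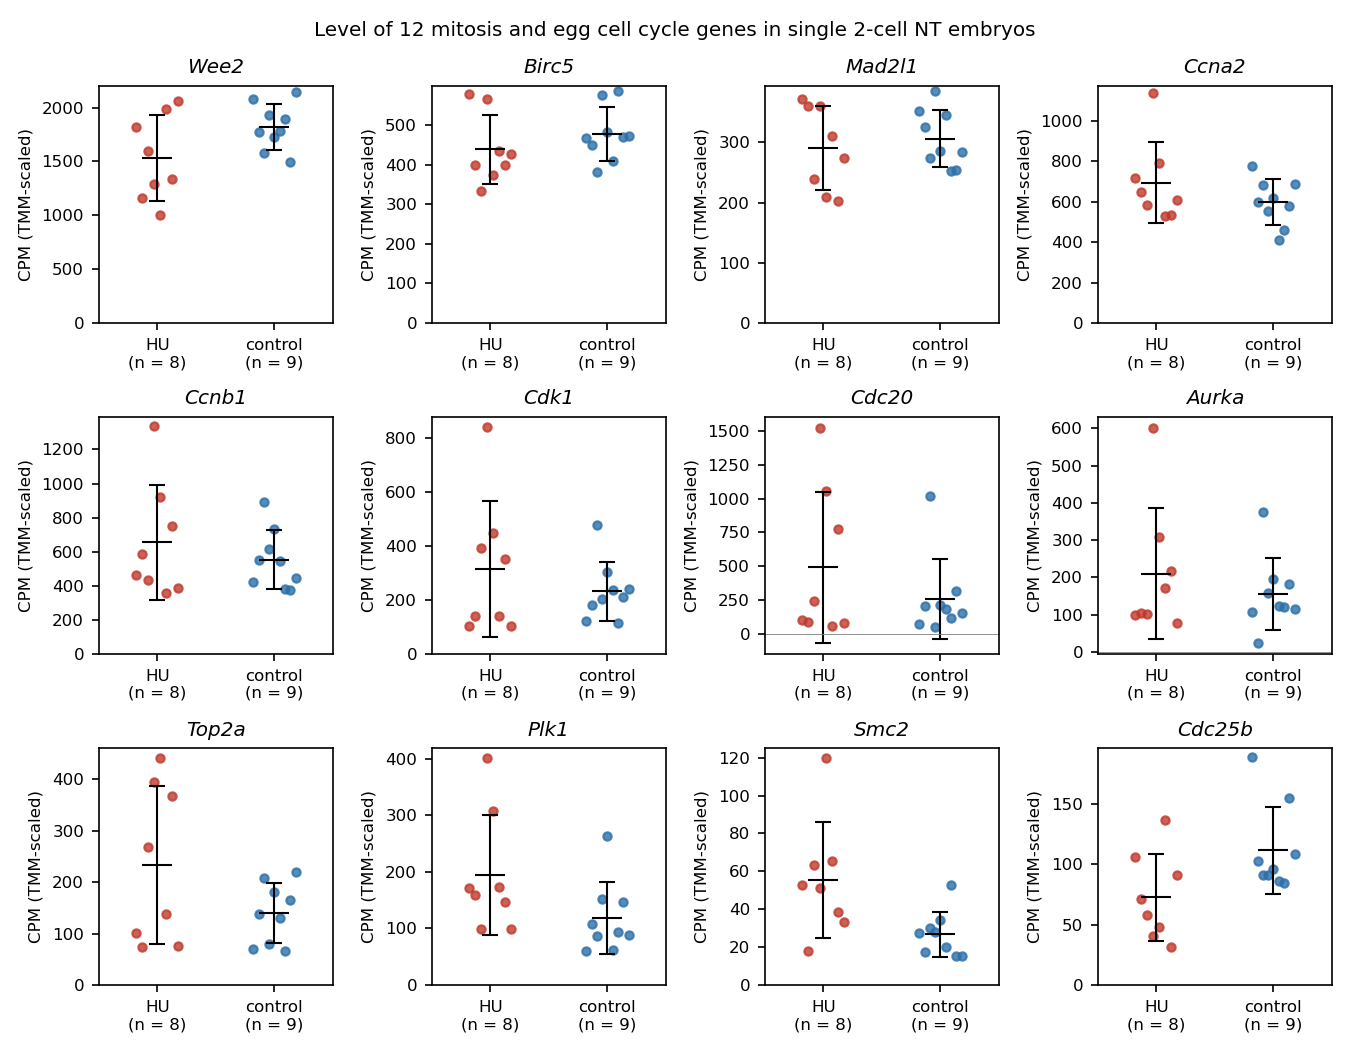
TMM-scaled CPM of 12 of the genes in single embryos, with 8 HU embryos in red on the left of each panel and 9 control embryos in blue on the right; bars give the mean and 1 SD, and each panel has its own axis. HU embryos reach higher than every control for Ccna2, Ccnb1, Cdk1, Cdc20, Aurka, Top2a, Plk1 and Smc2, and at least 1 HU embryo lies within the control range in each panel.

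Among the cyclins and Cdk1, Ccna2 (S-phase and mitotic entry) ranged over 528, 629 and 1136 CPM in HU embryos, against 413, 599 and 778 CPM in control embryos. Ccnb1 ranged over 357, 525.5 and 1339 CPM in HU embryos, against 378, 547 and 892 CPM in control embryos. Cdk1 ranged over 104, 246 and 840 CPM in HU embryos, against 115, 212 and 480 CPM in control embryos. HU 4 was the highest embryo in all 3, HU 5 also lay above every control in Ccna2 (793 CPM) and Ccnb1 (923 CPM), and the groups overlapped. Their log2 fold changes were 0.22 ± 0.17 for Ccna2, 0.25 ± 0.25 for Ccnb1 and 0.44 ± 0.38 for Cdk1, and Ccnb2 gave -0.03 ± 0.24 (edgeR adjusted p 0.88 to 0.99). Without HU 4 the fold changes were 0.077 for Ccna2, 0.016 for Ccnb1 and 0.047 for Cdk1. Ccnb1 and Cdk1, whose proteins form the M-phase kinase, were both high in HU 4, HU 5, HU 7 and control 3. HU 3, also in the cluster high in 2-cell transcripts, was in place 4 for Cdk1 but place 12 of 17 for Ccnb1 (436 CPM). Since the 5 embryos of that cluster stand apart, the relation between partner genes was computed within the other 12, with the group means removed. That choice was made after the values were seen. Pearson's r of log2(CPM + 1) for Ccnb1 and Cdk1 was 0.56 (n = 12, permutation p = 0.060, adjusted over 8 pairs 0.48), and Spearman's rho was 0.48 (permutation p = 0.11, adjusted 0.58). Without HU 2 and control 5, the 2 of these embryos farthest from the Ccnb1 median, r was 0.30. Within the 12, none of the 8 pairs passed, and the 7 others had r between -0.46 (Rad21 and Smc3) and 0.33 (Ccnb1 and Ccnb2). Over all 17 embryos, the set planned at first, Ccnb1 and Cdk1 alone passed, with r = 0.81 (permutation p adjusted over 8 pairs 0.00064). That r was 0.81 within HU and 0.80 within control embryos. Since 2 clusters share that fit, a relation of the 2 genes cannot be told apart from a difference between clusters.

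Among the inhibitors of Cdk1, Wee2 ranged over 1001, 1465 and 2063 CPM in HU embryos, against 1498, 1780 and 2143 CPM in control embryos. In HU, 4 of 8 embryos lay below every control, and the log2 fold change was -0.25 ± 0.15 (edgeR adjusted p = 0.83). Wee1 averaged 47.7 ± 18.6 CPM in HU embryos and 52.5 ± 23.5 CPM in control embryos. Pkmyt1, which encodes Myt1, averaged 36.5 ± 9.15 CPM in HU embryos and 44.4 ± 10.46 CPM in control embryos, and only 1 of 8 HU embryos exceeded the control median (log2 fold change -0.28 ± 0.22). All 3 inhibitors had fitted values below 0 and none passed the test, and Wee1 was at 0.044 with ERCC scaling and at 0.010 without control 4. The log2 ratio of Wee2 to Wee1 was 5.05 ± 0.76 in HU embryos and 5.23 ± 0.79 in control embryos, a difference of -0.18 (2-sided exact permutation p = 0.64 over 24310 assignments, adjusted over 6 ratios 0.83). Mos had a log2 fold change of 0.91 ± 0.56 at a mean of 4.79 CPM over 17 embryos.

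Of the kinases of spindle poles and centrioles, Aurka ranged over 77.1, 138 and 601 CPM in HU embryos, against 23.4, 124 and 376 CPM in control embryos (log2 fold change 0.43 ± 0.42). Plk4 ranged over 210, 260 and 402 CPM in HU embryos, against 227, 356 and 417 CPM in control embryos. Only 1 of 8 HU embryos exceeded the control median of Plk4, and its fitted change of -0.24 ± 0.17 did not pass (edgeR adjusted p = 0.86).

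In the chromosomal passenger complex, the scaffold Incenp ranged over 44.6, 122 and 197 CPM in HU embryos, against 35.02, 81.2 and 171 CPM in control embryos (log2 fold change 0.41 ± 0.29). Cdca8 ranged over 115, 265 and 664 CPM in HU embryos, against 165, 264 and 484 CPM in control embryos (0.30 ± 0.28). Birc5 ranged over 334, 414 and 577 CPM in HU embryos, against 381, 470 and 586 CPM in control embryos (-0.12 ± 0.14). Birc5 was the member with the least spread although its partners Aurkb and Cdca8 varied 10.7-fold and 5.79-fold over the same embryos. Aurkc averaged 34.2 ± 20.1 CPM in HU embryos and 45.7 ± 15.3 CPM in control embryos, with 5 of 8 HU embryos below every control (-0.41 ± 0.30). The log2 ratio of Aurkc to Aurkb was -1.56 ± 1.43 in HU embryos and -0.49 ± 0.70 in control embryos. The difference of -1.06 ± 0.56 (SE) did not pass, with a 2-sided exact permutation p of 0.065 (adjusted over 6 ratios 0.39), and 2 of 8 HU embryos exceeded the median control. Of the 6 ratios computed, none passed.

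Among the checkpoint genes, Mad2l1 ranged over 203, 292 and 371 CPM in HU embryos, against 253, 285 and 384 CPM in control embryos. Ttk (Mps1, the kinase at the top of the checkpoint) ranged over 43.9, 69.4 and 147 CPM in HU embryos, against 52.9, 88.4 and 169 CPM in control embryos. Bub1 and Bub1b, the checkpoint kinase and its relative BubR1, gave log2 fold changes of -0.0033 ± 0.26 and 0.33 ± 0.27, and Bub3 gave 0.38 ± 0.43. The 5 genes overlapped between the groups, and their edgeR adjusted p values were 0.88 or above.

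In the anaphase complex, Cdc20 averaged 492 ± 560 CPM in HU embryos and 261 ± 296 CPM in control embryos. The SD exceeded the mean in both groups. The fitted log2 fold change was 0.92 ± 0.63 (edgeR adjusted p = 0.85). It was 0.40 without HU 4, 0.22 with the replicate block, and 1.54 without control 3, the only embryo whose omission put its unadjusted p under 0.05. Cdc20 is overlapped by Elovl1 on the opposite strand. Fzr1, or Cdh1, the activator that takes over from Cdc20 at mitotic exit, averaged 84.1 ± 26.2 CPM in HU embryos and 86.5 ± 25.5 CPM in control embryos, and overlaps Mfsd12. The log2 ratio of Cdc20 to Fzr1 was 1.61 ± 1.83 in HU embryos and 1.10 ± 1.22 in control embryos (2-sided exact permutation p = 0.50). The inhibitors Fbxo5 and Fbxo43 had fitted log2 fold changes of -0.21 ± 0.29 and -0.21 ± 0.30, and for each only 1 of 8 HU embryos exceeded the control median. Without HU 4, which was highest in Fbxo5 at 256 CPM, Fbxo5 was at -0.55 with an unadjusted p under 0.05. The subunits Anapc1 and Cdc27 gave 0.06 ± 0.28 and -0.01 ± 0.18. Pttg1 averaged 425 ± 136 CPM in HU embryos and 442 ± 126 CPM in control embryos, and separase (Espl1) 128 ± 54.4 CPM in HU embryos and 143 ± 72.6 CPM in control embryos.

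Of the cohesin genes, Rad21, the subunit that separase cuts, ranged over 55.6, 118 and 214 CPM in HU embryos, against 68.5, 103 and 146 CPM in control embryos. Its log2 fold change was 0.29 ± 0.24, that of Smc3 0.35 ± 0.32 and that of Smc1a -0.17 ± 0.34. Smc1a had a larger SD in HU embryos (15.04 CPM) than in control embryos (5.01 CPM), with 2 HU embryos above and 3 below every control. At the kinetochore, Cenpa ranged over 148, 289 and 817 CPM in HU embryos, against 177, 300 and 402 CPM in control embryos (0.19 ± 0.27). The kinesin Cenpe ranged over 64.7, 122 and 282 CPM in HU embryos, against 85.1, 127 and 167 CPM in control embryos (0.22 ± 0.26). Ndc80 and Nuf2, which bind microtubules as a pair, gave 0.43 ± 0.30 and -0.27 ± 0.21. Of the spindle genes, Tpx2, which activates Aurora A, averaged 155 ± 75.7 CPM in HU embryos and 119 ± 59.9 CPM in control embryos, and the motor Kif11 115 ± 67.4 CPM in HU embryos and 88.3 ± 27.1 CPM in control embryos. None of these 9 genes passed the test.

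The spread in CPM was larger in HU embryos for most of these genes. The SD of CPM was larger in HU than in control embryos for 35 of 44 members (79.5%), against 61.5% of all genes tested. The same held for 88 of 122 other cell cycle genes (72.1%) and 13 of 15 egg transcripts (86.7%). The ratio of SDs was 3.44 for Aurkb, 2.80 for Cenpe, 2.62 for Top2a and 2.31 for Cdk1. HU embryos held 4 of the 5 embryos highest in 2-cell transcripts, and the part of these embryos in the spread was not tested. The median biological coefficient of variation was 0.41 for the members and 0.50 for all genes tested.

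The same pathway was followed in 129 other cell cycle genes, of which 126 were in the table and 122 were tested. Fitted log2 fold changes were above 0 for 79 of 122 (64.8%), with a median of 0.10, and 0 passed the edgeR test. At an unadjusted p under 0.05, 5 were higher in HU (4.10%) and 0 lower. Melk, a mitotic kinase, averaged 63.3 ± 27.1 CPM in HU embryos and 41.4 ± 8.92 CPM in control embryos. The anaphase complex subunits Anapc7 and Anapc11 had log2 fold changes of 1.094 ± 0.42 and 0.91 ± 0.31, the kinetochore gene Spc24 0.83 ± 0.39 and the spindle gene Nusap1 0.68 ± 0.28 (edgeR adjusted p = 0.83 for all 5). Scaling by ERCC spike-ins put the median fold change of all genes at 0.19 and that of the members at 0.30 (log2), with 33 of 44 members and 69.4% of all genes above 0, and 0 calls.

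The ends of the messages were searched for the cytoplasmic polyadenylation element, which lengthens the poly(A) tail of stored egg messages as meiosis proceeds. The letters TTTTAT and TTTTAAT were searched on the transcript's strand in the last 100 bases of the longest coding transcript of GENCODE M21 with a 3′ UTR of at least that length. Of the 42 tested members with such an end, 11 (26.2%) held either, against 19.7% of 10412 tested genes. With the untested Ccna1 and Ccnb3 it was 12 of 44. The 12 were Wee2, Plk4, Aurka, Aurkb, Aurkc, Bub1b, Fbxo5, Smc2, Ndc80, Cenpe, Kif11 and Ccnb3. Stretches of 30 bases are given for Wee2, the most abundant member, for Aurka, among the most variable, and for Aurkb and Smc2, among those with the smallest p in HU, with the element in capitals. The genes lie on chromosomes 6, 2, 11 and 4 in that order.
Wee2: tgtaaataaagaTTTTATcttatccaaaga
Aurka: ttaaaggctattTTTTATgttggagttctg
Aurkb: tgaagaacaacaTTTTATaataaagtctta
Smc2: tttgtttttgtaTTTTATatatagtttcac

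The element began 18 bases from the annotated end in Wee2, 59 in Aurka, 37 in Aurkb and 62 in Smc2. Other transcript ends of these genes may be in use, and a match of letters does not show that a message was polyadenylated.

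Cumulus cells, the source of the donor nuclei, held little RNA of these genes. No animal or culture is named for the cells, so the 12 cells were summed as 1 sample without a test, and levels here are CPM without Rn45s. Of the 46 genes, 44 reached 5 CPM in the cumulus cells or the control embryos. Of those 44, 34 (77.3%) were at least 4-fold lower in cumulus cells than in control embryos, against 28.6% of all 12902 genes so compared. None was at least 4-fold higher, against 19.6% of all genes. The counts were the same without the cell richest in Rn45s, without the 3 cells with the fewest counts, and with HU embryos in place of controls. Control embryos themselves reached 5 CPM for 43 of the 44 genes and for 11265 of the 12902, so the rule favours genes high in embryos. The shares of all genes were not matched to the embryo level of the 46 genes. Whether other genes as abundant in embryos differ as much was not tested. The summed level of the 46 genes had a median of 756 CPM in single cumulus cells, against 10225 CPM in HU embryos and 9983 CPM in control embryos. Single cumulus cells had counts for 8 to 17 of the 46 genes, HU embryos for 45 to 46 and control embryos for 44 to 46. A single cell library detects fewer genes of any kind, 4054 to 8629, than an embryo library, 12887 to 15421 in HU and 13875 to 15132 in control embryos.

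**Figure D5:**
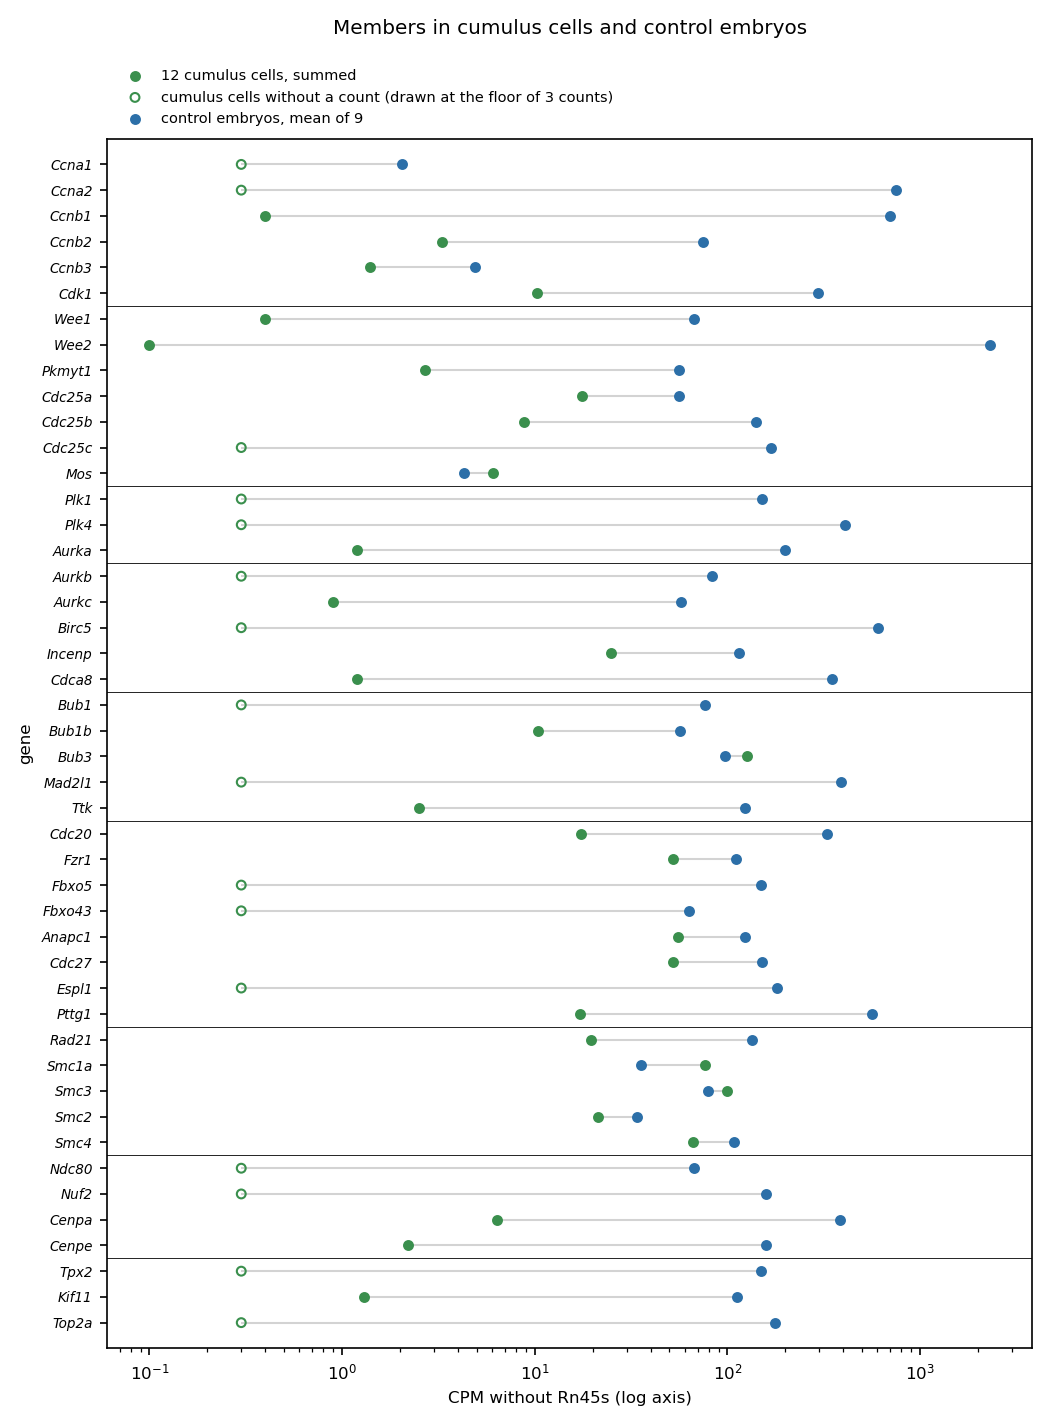
Level of the 46 genes in 12 cumulus cells summed (green) and in control embryos (blue, mean of 9), in CPM without Rn45s on a log axis, with genes in blocks by function. Open circles stand at the floor of 3 counts for the 16 genes without a count in any cell, and 4 of the 5 cohesin and condensin genes lie within 4-fold of the embryo level.

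No count was found in any of the 12 cells for 16 of the 46 genes. Among the 43 genes at 5 CPM or more in control embryos, 15 (34.9%) had no count, against 12.2% of all genes at 5 CPM or more. Both sets were chosen by embryo level, and the 12.2% is not matched to the level of the 43 genes there. The summed cells held 10014230 counts, so 3 counts, the floor set for a count of 0, equal 0.30 CPM. The exact Poisson interval of a count of 0 reaches 0.37 CPM. Ccna2 averaged 754 ± 123 CPM in control embryos (SD, n = 9), at least 2046-fold above that upper limit in cumulus cells. By the same limit Birc5 was at least 1646-fold, Plk4 at least 1110-fold and Mad2l1 at least 1051-fold lower in cumulus cells. These limits cover counting error alone, not differences between cells. Plk1, Aurkb, Bub1, Fbxo5, Fbxo43, Espl1, Cdc25c, Ndc80, Nuf2, Tpx2 and Top2a also had no count. Wee2 had 1 count in 1 cell, or 0.10 CPM (exact Poisson interval 0.0025 to 0.56), against 2304 ± 217 CPM in control embryos.

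The genes with the most counts in cumulus cells were Bub3 and the cohesin genes Smc3 and Smc1a. Bub3 had 1271 counts in 10 of 12 cells, or 127 CPM (120 to 134), against 97.0 ± 54.8 CPM in control embryos, and overlaps Fgfr2 on the opposite strand. Smc3 had 997 counts in 11 cells, or 99.6 CPM (93.5 to 106), against 79.1 ± 36.7 CPM in control embryos. Smc1a had 764 counts in 10 cells, or 76.3 CPM (71.0 to 81.9), against 35.6 ± 6.19 CPM in control embryos. Only these 3 genes and Mos had a higher level in cumulus cells than in control embryos. The condensin genes Smc4 and Smc2 stood at 66.0 and 21.2 CPM in cumulus cells, against 108 and 34.0 CPM in control embryos. Of the 5 cohesin and condensin genes, Rad21 alone was at least 4-fold lower. Anapc1, Cdc27 and Fzr1, core parts and the late activator of the anaphase complex, stood at 55.3, 52.0 and 52.1 CPM in cumulus cells, against 123, 150 and 110 CPM in control embryos.

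By function, 4 of 4 kinetochore genes, 5 of 5 passenger complex genes, 3 of 3 Polo and Aurora A kinases and 3 of 3 spindle genes were at least 4-fold lower in cumulus cells. So were 4 of the 5 checkpoint genes, 5 of 8 anaphase complex genes, 5 of 7 regulators of Cdk1, and 4 of 4 of the cyclins and Cdk1 that reached 5 CPM. The remaining mitotic counts came from few cells. Cdk1 had 103 counts in 4 cells, with 38 in cell 10, 32 in cell 1, 28 in cell 6 and 5 in cell 12. Cell 10, which had the fewest counts of all, also held 26 of the 33 counts of Ccnb2, 30 of the 64 of Cenpa and all 12 of Aurka, but 0 of Ccnb1, Ccna2, Plk1, Birc5 and Top2a. Cell 2, richest in Rn45s, held all 61 counts of Mos and all 25 of Ttk. Cdc20 had 175 counts in 6 cells, or 17.5 CPM (14.98 to 20.3), against 329 ± 362 CPM in control embryos, and Pttg1 had 172 counts in 8 cells, or 17.2 CPM (14.7 to 19.9), against 560 ± 159 CPM in control embryos. Whether dropout in single cells had a part in the counts of 0 was not tested.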

How the data were processed

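RNA of 29 libraries was measured by Smart-seq2, which copies whole transcripts and keeps no record of strand. The authors deposited raw counts per gene (24540 rows, of which 92 are ERCC spike-ins) and an FPKM table. The submitters' processing notes name the mm10 build, STAR 2.7.3a, FastQC and R 4.0.2; which counter and gene annotation were used, and whether strand was considered, is not given in the sources used here. Deposited FPKM values equalled the counts divided by library sum and gene length for all 18588 genes checked (tolerance 0.001), so they hold no further normalization. Reads of a gene and of an overlapping gene cannot be told apart, which touches 8 of the 46 genes overlapped by a coding gene (Ccna2, Pkmyt1, Cdc25b, Cdc25c, Cdca8, Bub3, Cdc20 and Fzr1). No 2 libraries were identical.

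HU and control embryos were compared by the edgeR 4.0.16 quasi-likelihood F test in R 4.3.3 on the deposited counts (TMM, filterByExpr, no covariate, 17 embryos), with Benjamini-Hochberg adjustment over all genes tested at a threshold of 0.05. The SE of a log2 fold change was taken from the F statistic, and CPM of embryos is TMM-scaled. Ratios of 2 genes (1 CPM added) were compared by a 2-sided exact permutation test on the absolute difference, and partner genes by a permutation test with 100000 resamples, within the 12 embryos low in 2-cell transcripts in place of all 17. Cumulus cells were summed and compared as a ratio with no test, a 95% exact Poisson interval and a floor of 3 counts over the group. Promoters are from RefSeq on GRCm38.p6; gene positions, overlaps and transcript ends are from GENCODE M21. The edgeR fit and the permutation test were tested on simulated data. Alternatives were DESeq2 1.42.0, limma-voom (limma 3.58.1), other scalings, filters and sets of libraries.

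The 46 genes and every list were chosen with earlier results of these data known. Values per embryo, or the lowest, median and highest, are given for most of the 2 most abundant genes of each function and for the 5 genes with the smallest p; the others, the genes of ratios and partner pairs included, are given by mean, fold change or counts. Fold changes of low genes depend on few counts, so Mos, Ccna1 and Ccnb3 are the least precise.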

Additional observations from a re-analysis of the deposited data

Results flagged for a closer look

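Within a group, a single embryo stood apart from the others for 19 of the 100 sets of values examined (each gene or ratio in each embryo group). The rule puts about 1 in 20 sets apart by chance only if values follow a normal distribution. Genes were examined as CPM without logarithms, so the 19 cannot be read as an excess over chance. HU 4 stood above the other HU embryos in 5 genes, at 1136 CPM for Ccna2 (next 793), 840 CPM for Cdk1 (next 449), 601 CPM for Aurka (next 308), 256 CPM for Fbxo5 (next 116) and 733 CPM for Pttg1 (next 504). HU 5 did so at 120 CPM for Smc2, 187 CPM for Smc4 and 253 CPM for the spindle motor Kif11. Control 3 stood above the other control embryos at 376 CPM for Aurka, 484 CPM for Cdca8, 1020 CPM for Cdc20 and 269 CPM for Tpx2. Control 5 did so at 264 CPM for Plk1 and control 7 at 52.5 CPM for Smc2, while control 9 was the lowest at 82.2 CPM for Cdc27. Of the log2 ratios, Aurkc over Aurkb reached 1.13 in control 5, Ccna1 over Ccna2 -5.34 in control 7, Ccnb1 over Ccnb2 4.90 in HU 4 and Cdc20 over Fzr1 3.71 in control 3. HU 4, HU 5 and control 3 are among the 4 embryos highest in 2-cell transcripts, and genes of the same embryo are not independent of each other.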

How the results depend on the processing

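DESeq2 called 3 genes (Etnk1, Tmed7 and Shq1, named after their values were seen), and leaving out each embryo in turn gave 0 to 1 calls in the whole table (Etnk1 without HU 8). The count of members called was 0 under every alternative run. Members at an unadjusted p under 0.05 numbered 1 to 7 when each embryo was left out, with 7 without HU 8 or control 3 and 1 without HU 5, and 0 with all 3 groups in the fit. The members' median log2 fold change was 0.017 to 0.237 when each embryo was left out and 0.081 by limma-voom. Replicate numbers were shared by the groups, and the labels do not say whether same-numbered embryos belong together. Same-numbered embryos did not vary together (correlations -0.103 to 0.167), and the main fit treated them as unpaired. A shared donor or day with a small effect could go unseen in that check. In a fit with a replicate block the members' median was 0.079 and no gene was called. Over 1141 fold changes of members under alternatives, 50 changed sign, in 12 genes, and Aurka and Cenpa did so only without HU 4. ERCC scaling gave log2 fold changes of 0.117 for Fzr1, 0.0520 for Pttg1, 0.10 for Cdc27, 0.0172 for Birc5, 0.18 for Bub1, 0.0851 for Mad2l1, 0.0443 for Wee1 and 0.12 for Ccnb2, all below 0 with TMM. Cdc25a was -0.0126 without a low-count filter and -0.00851 with all 3 groups. By limma-voom Bub1 was 0.0405, Anapc1 -0.0962 and Ccnb2 0.0358; with the replicate block they were 0.00457, -0.0980 and 0.0483. Leaving out each embryo gave -0.130 to 0.0588 for Fzr1, -0.216 to 0.00466 for Pttg1, -0.0786 to 0.0554 for Cdc27, -0.178 to 0.130 for Bub1, -0.265 to 0.0103 for Wee1, -0.140 to 0.0701 for Ccnb2, -0.134 to 0.1002 for Cdc25a, -0.0732 to 0.196 for Anapc1, -0.0159 to 0.688 for Aurka and -0.121 to 0.286 for Cenpa. The differences in log2 ratio then spanned -0.490 to 0.240 for Ccna1 over Ccna2, -0.101 to 0.232 for Ccnb1 over Ccnb2 and -0.0831 to 0.498 for Fbxo43 over Fbxo5. Over all 17 embryos, where 2 clusters share the fit, r of Ccnb1 and Cdk1 was 0.81, and the 12 embryos low in 2-cell transcripts gave 0.557. Those 12 also turned the sign, to 0.276 for Aurkb and Birc5, -0.0552 for Ndc80 and Nuf2, -0.0243 for Smc2 and Smc4, -0.460 for Rad21 and Smc3 and 0.153 for Espl1 and Pttg1. Over all 17, r was -0.0420 for Ndc80 and Nuf2 with group means kept, 0.0231 for Espl1 and Pttg1 by library size alone, and with ERCC scaling 0.40 for Espl1 and Pttg1, 0.13 for Aurkb and Birc5 and 0.19 for Bub1 and Bub1b, all of the other sign with TMM and group means removed. A mean over cumulus cells in place of the sum put 1 gene, Mos, at least 4-fold higher, through the 61 counts of cell 2. The cause of these shifts was not tested. Depth limits the comparison for Mos, Ccna1 and Ccnb3, and in cumulus cells for genes below the floor of 0.30 CPM.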
